A study of Sus scrofa with 24 samples.

Results

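The jejunal mucosa of postnatal-growth-retarded (PGR) pigs and of healthy pigs was profiled by quantitative PCR for 26 target genes, and the profile is described here from 12 of the 24 deposited samples, 6 PGR pigs and 6 healthy pigs. The other 12 samples were ileal mucosa of the same 2 groups of pigs. They entered only the check of titles in this paragraph, the adjustment of p over both tissues and the last comparison. All animals were weaned crossbred pigs (Duroc × Landrace × Large Yorkshire) that shared their paternal origin and were sampled at 42 d of age after a night without feed. PGR pigs were defined by a body weight far under the average and were matched to healthy pigs by litter. Sample titles decided the groups here: in 12 samples, all the healthy ileal and all the PGR jejunal ones, the field for tissue names the other tissue. By that field all 12 healthy samples would be jejunal and all 12 PGR samples ileal. The values differ from that: in both groups the samples titled jejunal and ileal differed, in the same direction in 23 of 25 genes, as for GHRL (6.59 log2 units higher in the jejunum of healthy pigs and 5.60 in that of PGR pigs) and CCK (3.43 and 2.74). The panel has no marker of the absorptive epithelium, so which of the 2 titled sets is the jejunum rests on the titles.

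The jejunal mucosa takes up most digested nutrients, and it also holds scattered endocrine cells, immune cells and dividing crypt cells. The panel covers receptors and ligands of the growth hormone axis, gut peptides of appetite and satiety, serotonin handling, cytokines, Toll-like receptor signalling, the antioxidant response and the pathway that controls translation. The samples were bulk mucosa, in which fewer cells of a type and less mRNA per cell give the same lower level and could not be told apart.

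Levels were expressed relative to β-actin mRNA, and relative mRNA levels are given as multiples of the mean of the healthy pigs. Of the 312 jejunal values (26 genes in 12 pigs), 40 were left blank in the deposited table, 22 in healthy pigs and 18 in PGR pigs, and 272 were kept. The target Ct, the cycle at which a product passes the detection threshold, was deposited for all 312 values, so 39 of the blank levels could be computed. Of these, 37 lay outside the range of the kept values of their own gene and group. In healthy pigs 14 lay below and 5 above the kept range, and in PGR pigs 17 lay above and 1 below. Counted against the other group, 35 of the 39 lay on the side of the other group's mean. Blanks were most frequent in PGR pig 1, with 10, and in healthy pigs 2, 3 and 5, with 6 each. The comparisons below rest on the kept values, with the results for all values beside them where a direction or a count changed. The rule behind the blanks is not stated in the files, and their part in the result was not tested.

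The β-actin reading itself differed between pigs. The β-actin Ct recovered for 14 of the genes averaged 13.8 ± 0.506 (SD, n = 6) in healthy pigs and 13.3 ± 0.301 (n = 6) in PGR pigs, a difference of −0.478 cycles (exact permutation p = 0.0866, 2-sided, from every split of the 12 pigs into 6 and 6). In the set of 11 other genes it differed by −0.470 cycles (exact permutation p = 0.0952), and in the readings for GLP-1R by −0.570 (n = 5 and 6, exact permutation p = 0.0152). The mean Ct of the 26 targets was 22.97 ± 0.111 in healthy pigs and 23.0 ± 0.320 in PGR pigs (exact permutation p = 0.823). A log2 change is the log2 of the PGR mean over the healthy mean, and on the kept levels its median over the 26 genes was −0.64. It was −0.37 with the blank values filled, −0.01 on the Ct of the kept values with no reference gene, 0.05 with the mean target Ct as the reference, and 0.17 on the Ct of all pigs. The shifts from the kept levels were 0.26, 0.62, 0.69 and 0.81 log2 units. The general lower level in PGR pigs thus differed between scales, also with blanks filled and β-actin kept as the reference. The part of β-actin in the result was not tested, and each function below is also placed relative to the median of the panel.

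Single pigs stood apart across genes. Healthy pig 2 had a median relative level of 1.35 and the highest healthy value in 15 of its 20 kept genes, whereas healthy pig 5 had a median of 0.675 and the lowest healthy value in 17 of 20. PGR pig 3 gave the lowest PGR value in 13 of 22 genes, with a median of 0.541, and PGR pig 1 gave the highest in 8 of 16, with a median of 0.850. The median of healthy pig 5 lay below the medians of PGR pigs 1, 2 and 4, at 0.850, 0.678 and 0.709. Across the 12 pigs the median log2 level rose with the β-actin Ct (r = 0.857, permutation p = 0.00053; rho = 0.699, permutation p = 0.014). The r was 0.724 without healthy pig 2 and PGR pig 3, the 2 pigs farthest out. Within groups it was 0.95 in healthy pigs (exact permutation p = 0.0125) and 0.404 in PGR pigs (exact permutation p = 0.447). Levels contain the β-actin Ct by construction, and on the target Ct alone r was −0.437 (permutation p = 0.154; rho = −0.462, permutation p = 0.135; r = −0.239 without the same 2 pigs).

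**Figure D1:**
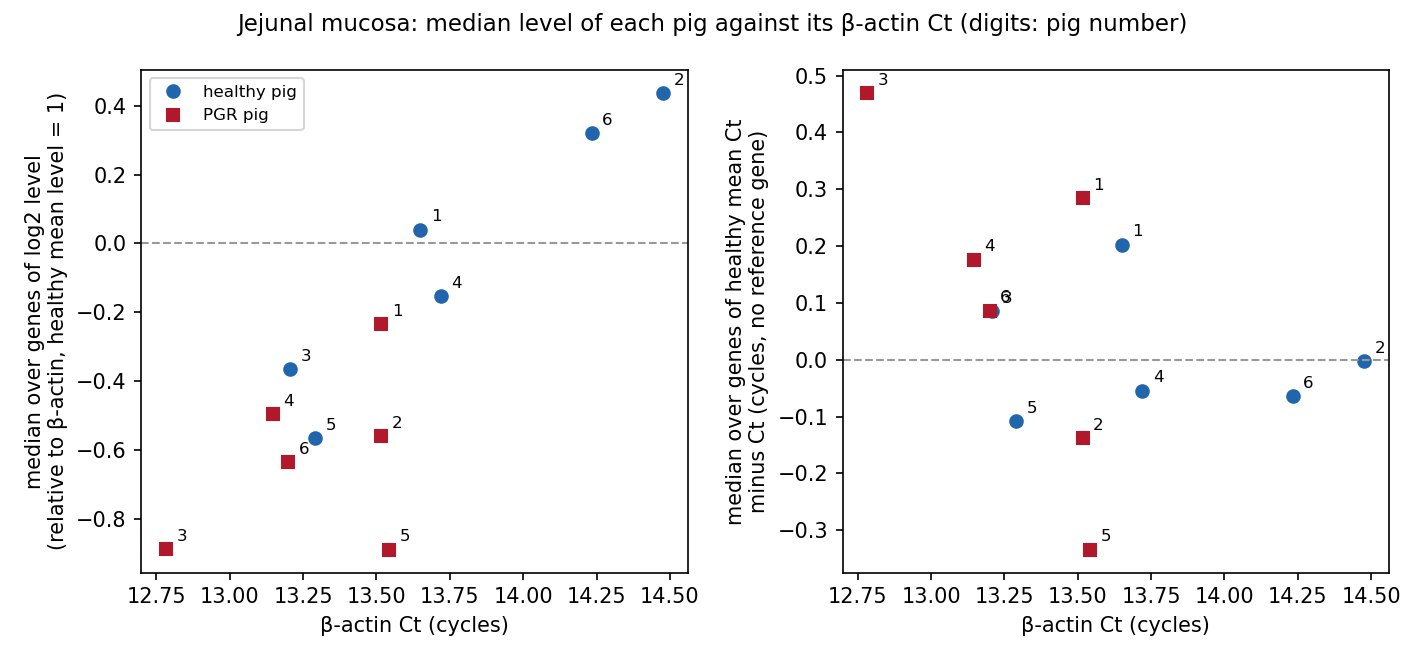
Median relative mRNA level of each pig over its kept genes, set against the β-actin Ct of that pig, with the same median on the target Ct alone. The relation to β-actin Ct had r = 0.857 on the levels and r = −0.437 on the target Ct.

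The first question was which transcripts are abundant in this mucosa. Abundance is given per 1000 β-actin units, as the mean ± SD of the kept values; a Ct obtained with an intercalating dye also depends on product length and amplification efficiency, which were not corrected, so the order is one of readings. In healthy pigs the highest reading was that of heme oxygenase 1 (HO-1), the stress-inducible heme-degrading enzyme, at 39.2 ± 34.3 (n = 5). That place rested on healthy pigs 2 and 6, at 79.8 and 73.1. Of the 4 healthy pigs with both values HO-1 exceeded CCK in 1, pig 6, and without healthy pig 2 the mean log2 level was −5.58 for HO-1 and −5.40 for CCK, and without healthy pig 6 it was −5.55 and −5.52. The satiety peptide cholecystokinin (CCK) followed at 24.8 ± 7.92 (n = 5), and the inhibitory peptide somatostatin (SS) at 16.6 ± 5.39 (n = 5). The translation repressor 4EBP1 stood at 10.4 ± 3.39 (n = 5). CCK and SS, hormones of sparse endocrine cells, thus gave readings above all 4 genes of the protein synthesis pathway.

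A broad middle range followed in healthy pigs. The kinase Akt read 7.86, the neutrophil chemokine IL-8 read 7.83, the ribosomal kinase P70S6K 6.36, the adaptor MyD88 6.31 and the assay named IL-4 read 6.25. The kinase mTOR, the quinone reductase NQO1, the IGF-1 receptor (IGF-1R) and the transcription factor Nrf2 lay close together at 3.82, 3.78, 3.75 and 3.69. IGF-1 read 3.06, the serotonin transporter SERT 2.83 and the insulin receptor (INSR) 2.37. Under these came IFNγ at 1.65, the endotoxin receptor TLR4 at 1.47, the serotonin receptor 5-HT4R at 1.16 and the growth hormone receptor (GHR) at 0.980. Ghrelin (GHRL) read 0.907, the GLP-1 receptor (GLP-1R) 0.50 and IL-10 read 0.419. GLP-1R alone was set against β-actin readings of its own, with a mean Ct of 14.8; with the readings of the other genes it read 0.222 and stood below IL-10.

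The lowest readings were those of IL-1β at 0.123, IL-6 at 0.0126 and the orexigenic peptide AgRP at 0.00577. IL-6 lay 3.30 log2 units below IL-1β, and AgRP a further 1.20 below IL-6. From the highest to the lowest gene the panel spanned 12.31 log2 units in healthy pigs (HO-1 to AgRP) and 12.13 in PGR pigs (SS to AgRP). On the kept levels, 7 of the 25 steps between neighbours in the order exceeded the larger SD of the 2 genes. Most neighbouring means in the middle thus differed by less than the SD between pigs. Whether neighbours kept their order within each pig was not tested, and was counted only for HO-1 and CCK.

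The order in PGR pigs resembled the one in healthy pigs (Spearman rho = 0.969 over 26 genes, a description without a test, since the genes are not independent). IL-1β, IL-6, AgRP, CCK, mTOR, IGF-1R, NQO1 and 5-HT4R, 8 genes in all, held the same place in the order of mean log2 level. SS took place 1 at 18.5 per 1000 β-actin units, CCK place 2 at 13.9, and HO-1 went from place 1 to place 4 at 9.12. Nrf2 went from place 13 to 18 and GHR from place 20 to 23, while INSR went from 16 to 13 and IFNγ from 17 to 14. On the kept levels those 5 genes were the ones that moved by 3 places or more. With blanks filled HO-1 went from place 1 to 3, at 15.8 in PGR pigs, GHR from 21 to 23 and INSR from 15 to 13. Nrf2 (11 to 18), IFNγ (17 to 14), IL-8 (6 to 9) and GHRL (19 to 22) then moved by 3 places or more. IGF-1R, NQO1 and 5-HT4R no longer held their place with blanks filled, whereas SERT did.

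**Figure D2:**
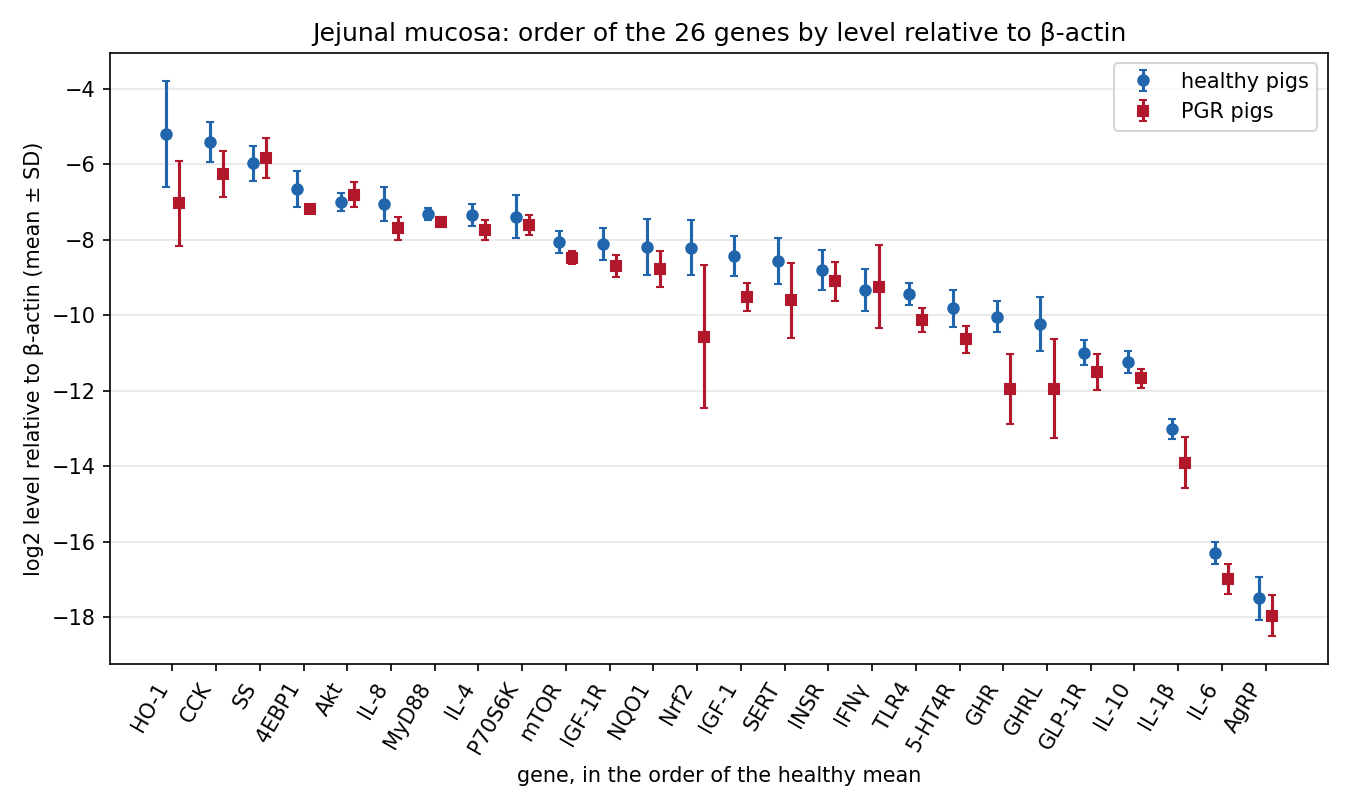
Abundance order of the 26 genes in healthy and PGR jejunal mucosa, as the mean ± SD of the log2 level relative to β-actin in each group. The healthy span from HO-1 to AgRP was 12.31 log2 units.

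The second question was how the relative mRNA levels differed between the groups. An exact permutation test of the group means gave an unadjusted p under 0.05 for 13 of 26 genes (50%), all lower in PGR pigs, and for 0 (0%) higher in PGR pigs. After Benjamini-Hochberg adjustment over the 52 comparisons of 26 genes in 2 tissues, 0 genes (0%) had an adjusted p under 0.05, the smallest being 0.0728, which 8 genes shared (GHR, IGF-1, GHRL, 5-HT4R, IL-6, IL-8, TLR4 and Nrf2). Of these, GHR stood at 0.293 of the healthy mean and was below the lowest healthy pig in 6 of 6 PGR pigs. The linear model of limma gave 12 genes at an unadjusted p under 0.05 and a rank-sum permutation test gave 9, all lower. The mean was below the healthy mean in 23 of 26 genes. In 2 genes (7.69%), GHR and IGF-1, the kept values of the groups did not overlap. Leaving out 1 pig at a time, the number under 0.05 ranged from 8 without PGR pig 5 to 16 without healthy pig 5. With the blank values filled, 5 genes had an unadjusted p under 0.05 (GHR, IGF-1, GHRL, 5-HT4R and Nrf2, all lower), and on the Ct of the kept values 3 were lower (GHR, IGF-1 and Nrf2) and 3 higher (SS, Akt and P70S6K).

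On the log2 scale the changes ran from −2.10 for HO-1 through GHR (−1.77), Nrf2 (−1.57), GHRL (−1.40) and IGF-1 (−1.13) to SS (0.16), Akt (0.21) and IFNγ (0.36). By function the median change was −1.57 for the antioxidant genes, −0.94 for appetite peptides, −0.89 for serotonin genes, −0.87 for the growth axis and −0.68 for pro-inflammatory cytokines, the last of which flipped to higher with blanks filled and on the Ct of all pigs, against −0.64 for all 26 genes. It was −0.49 for satiety genes, −0.46 for Toll-like receptor genes, −0.40 for T cell and regulatory cytokine assays and −0.36 for protein synthesis genes, and these 4 flipped to higher with the mean target Ct as reference and on the Ct of all pigs, and all but the T cell assays (−0.03) also on the Ct of the kept values. The order of genes by change was similar on the Ct of the kept values (rho = 0.917) and with the mean target Ct as reference (rho = 0.945), and less so with blanks filled (rho = 0.701) or on the Ct of all pigs (rho = 0.711). GHR, IGF-1 and Nrf2, 3 of the 26 genes, were lower at an unadjusted p under 0.05 on all 6 scales compared. The size of the change showed little relation to abundance (rho = 0.307 between absolute log2 change and mean Ct).

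**Figure D3:**
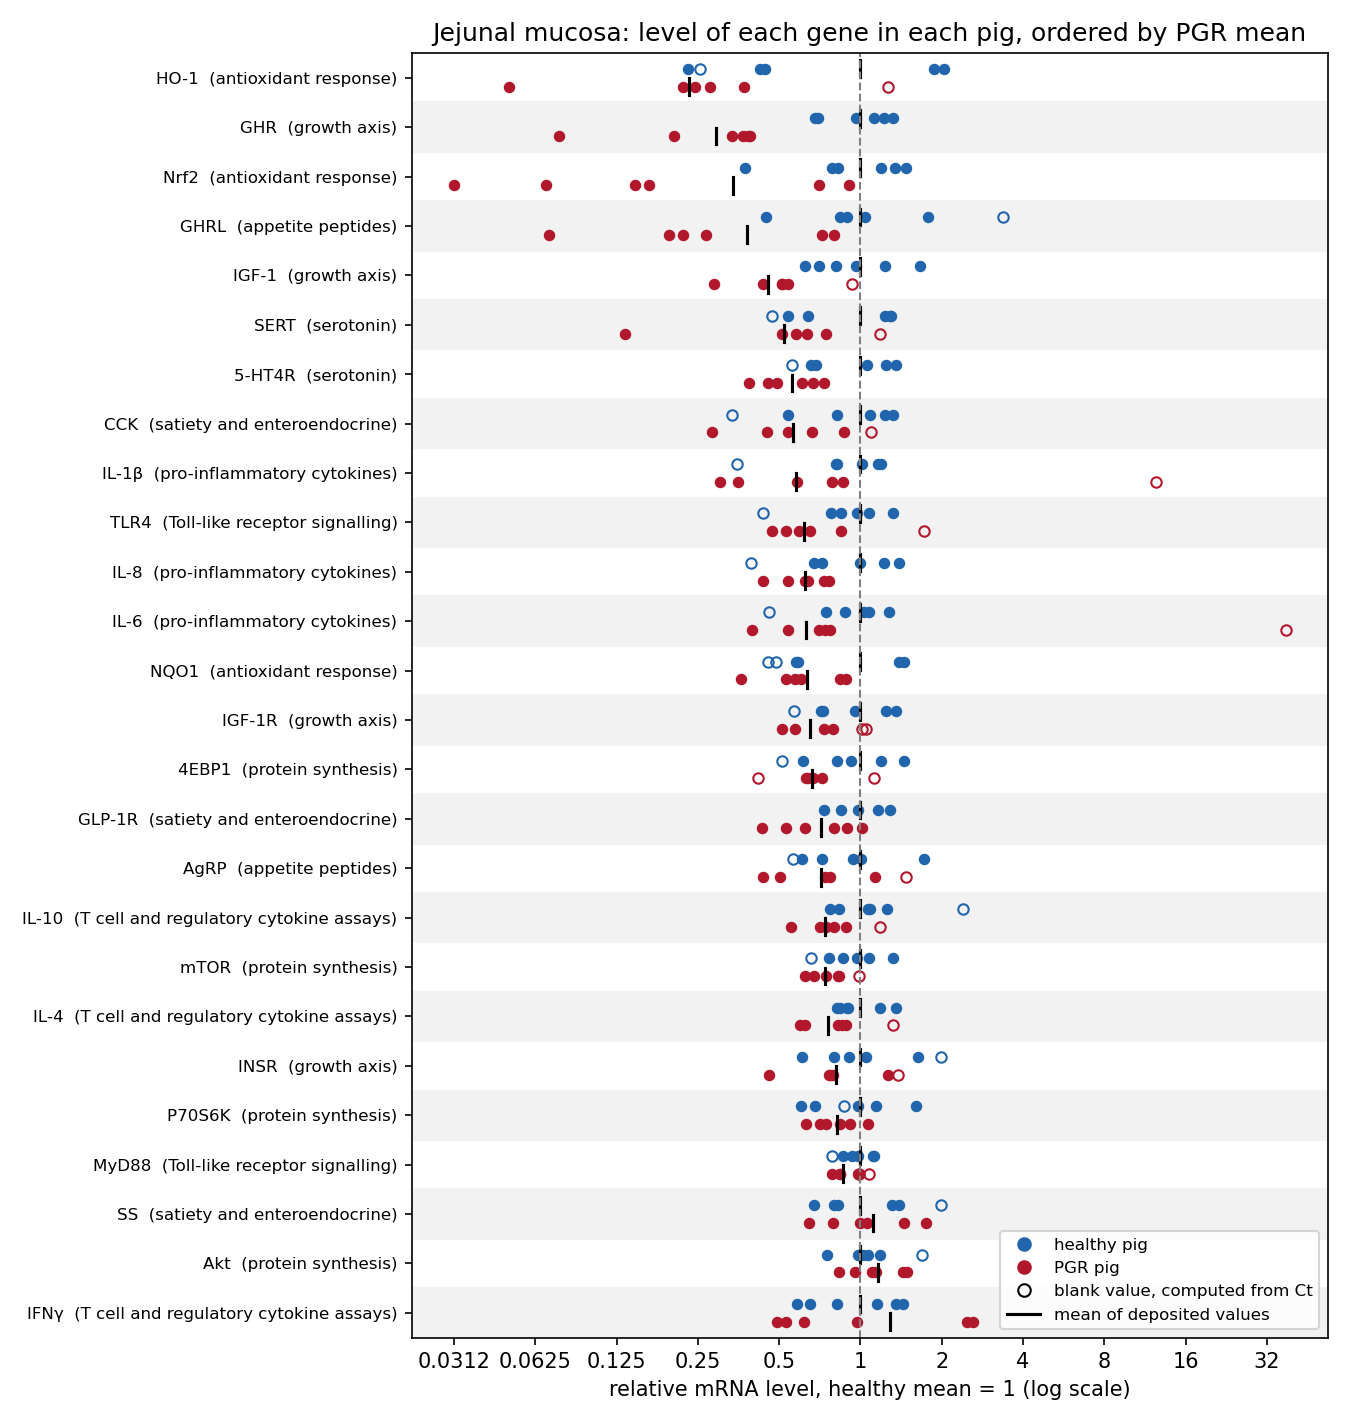
Relative mRNA level of each gene in each pig, with genes ordered by the PGR mean relative to the healthy mean. Filled points are kept values and open points are blank values computed from the Ct. GHR averaged 0.293 and IGF-1 0.456 of the healthy mean, and both stayed lower on the Ct with no reference gene, whereas the panel median went from −0.64 to −0.01.

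Within the growth axis, GHR transmits the growth hormone signal that induces IGF-1, and IGF-1R and INSR bind IGF-1 and insulin. GHR ranged from 0.678 to 1.32 in healthy pigs (median 1.04) and from 0.0767 to 0.388 in PGR pigs (median 0.351). All 6 PGR pigs lay below the lowest healthy pig, and PGR pig 3 was the lowest. The mean was 0.293 ± 0.126 (n = 6) against 1 ± 0.271 (n = 6; exact permutation p = 0.00216, the smallest that 6 against 6 pigs can give). IGF-1 ranged from 0.63 to 1.67 in healthy pigs (median 0.889), and the kept PGR values were 0.287, 0.437, 0.510, 0.510 and 0.537. The 5 kept PGR values lay below the healthy range, with a mean of 0.456 ± 0.102 (n = 5) against 1 ± 0.390 (n = 6; exact permutation p = 0.00649). The blank value was that of PGR pig 1, which computes to 0.928 and lies inside the healthy range; with it the mean was 0.535 (exact permutation p = 0.0195).

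The receptors of the same axis overlapped between groups. IGF-1R averaged 0.653 ± 0.133 (n = 4) in PGR pigs against 1 ± 0.294 (n = 5; exact permutation p = 0.0794). INSR averaged 0.810 ± 0.288 (n = 5) against 1 ± 0.390 (n = 5; exact permutation p = 0.444). Both lay above the healthy mean on the Ct with no reference gene, at 1.14 and 1.11. Relative to the panel median, the growth axis median was −0.24 on the kept levels and between −0.15 and −0.31 on the other scales, so its place under the panel did not flip. It was GHR and IGF-1 that lay under the panel median on all 6 scales, while IGF-1R lay above it on all 6 and INSR on 5, all but the Ct of all pigs.

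Among appetite peptides, GHRL is the orexigenic hormone of gut endocrine cells, and AgRP is an orexigenic neuropeptide. GHRL kept values were 0.447, 0.839, 0.889, 1.04 and 1.79 in healthy pigs, and PGR pigs ranged from 0.0705 to 0.80 with a median of 0.244. PGR pigs 2, 3, 5 and 6 lay below every healthy pig, whereas PGR pigs 1 and 4 lay among them; the blank of healthy pig 2 computes to 3.39. The mean was 0.380 ± 0.304 (n = 6) against 1 ± 0.491 (n = 5; exact permutation p = 0.0216, and 0.0524 without healthy pig 6). AgRP, the gene with the lowest reading, averaged 0.717 ± 0.275 (n = 5) against 1 ± 0.436 (n = 5; exact permutation p = 0.278). The 2 peptides lay on opposite sides of the panel median on all 6 scales, on the kept levels GHRL by −0.76 and AgRP by 0.16, so the low appetite median (−0.30 relative to the panel) was that of GHRL alone.

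In the satiety and endocrine group, CCK signals fullness, GLP-1R receives the GLP-1 signal and SS inhibits secretion. CCK kept values were 0.541, 0.822, 1.08, 1.23 and 1.33 in healthy pigs and 0.283, 0.453, 0.540, 0.662 and 0.866 in PGR pigs, with 3 PGR pigs below the kept healthy range. The blanks of healthy pig 2 and PGR pig 1 compute to 0.334 and 1.09, which leaves 1 PGR pig below it. The mean was 0.561 ± 0.220 (n = 5) against 1 ± 0.319 (n = 5; exact permutation p = 0.0476). Without healthy pig 1, 3, 4 or 6, or without PGR pig 3, 4, 5 or 6, this p lay between 0.0556 and 0.0952. GLP-1R averaged 0.714 ± 0.224 (n = 6) against 1 ± 0.225 (n = 5; exact permutation p = 0.0671, but 0.0429 without healthy pig 5 and 0.0397 without PGR pig 1). SS did not follow the other hormones, at 1.12 ± 0.415 (n = 6) against 1 ± 0.325 (n = 5; exact permutation p = 0.619), and PGR pigs 1 and 2, at 1.75 and 1.46, exceeded the 5 kept healthy values but not the blank of healthy pig 2, which computes to 1.99. On the Ct with no reference gene SS stood at 1.38 (exact permutation p = 0.0390), and with blanks filled at 0.958. The satiety median lay above the panel median on the kept levels (0.15) and flipped to below it with blanks filled (−0.08) and on the Ct of all pigs (−0.14).

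SERT clears serotonin from the mucosa and 5-HT4R is a receptor that promotes motility and secretion. 5-HT4R kept values were 0.656, 0.685, 1.06, 1.25 and 1.35 in healthy pigs, and PGR pigs ranged from 0.385 to 0.732 with a median of 0.549. Healthy pigs 3 and 4 overlapped the upper PGR pigs, as did the blank of healthy pig 5, which computes to 0.556. The mean was 0.557 ± 0.135 (n = 6) against 1 ± 0.319 (n = 5; exact permutation p = 0.0130), and no single pig, left out, moved p above 0.05. On the Ct with no reference gene 5-HT4R stood at 0.863 of the healthy mean (exact permutation p = 0.370). With the mean target Ct as reference it stood at 0.909 (exact permutation p = 0.558). SERT kept values were 0.134, 0.513, 0.579, 0.636 and 0.748 in PGR pigs, with PGR pig 3 the lowest. The mean was 0.522 ± 0.233 (n = 5) against 1 ± 0.376 (n = 5; exact permutation p = 0.0714, but 0.0159 without healthy pig 3 and 0.0476 without healthy pig 4). The serotonin median lay under the panel median by −0.25 on the kept levels and by −0.24 to −0.30 on the other 5 scales.

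IL-1β and IL-6 drive acute inflammation and IL-8 recruits neutrophils. The kept PGR values of IL-1β were 0.301, 0.353, 0.584, 0.784 and 0.860, and 4 of them lay below the lowest kept healthy value of 0.814, while the blank of healthy pig 3 computes to 0.350. IL-1β averaged 0.576 ± 0.250 (n = 5) against 1 ± 0.181 (n = 5; exact permutation p = 0.0317), with p = 0.0635 without healthy pig 1, 2 or 6 and 0.0556 without PGR pig 2 or 5. IL-6 averaged 0.629 ± 0.158 (n = 5) against 1 ± 0.203 (n = 5; exact permutation p = 0.0159). IL-8 averaged 0.624 ± 0.122 (n = 6) against 1 ± 0.310 (n = 5; exact permutation p = 0.0173, and 0.0556 without PGR pig 1, 2 or 5).

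The direction of the first 2 cytokines flipped with 1 pig. The blank IL-1β and IL-6 values of PGR pig 3 compute to 12.4 and 37.6, where the nearest other PGR values were 0.860 and 0.772. With all values filled the PGR means were 2.86 for IL-1β (exact permutation p = 0.948) and 7.47 for IL-6 (exact permutation p = 0.965). Accordingly the pro-inflammatory median lay at −0.04 relative to the panel on the kept levels, at −0.23 on their Ct, and flipped to 1.89 with blanks filled and 2.28 on the Ct of all pigs.

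In the T cell and regulatory group, IFNγ is the type 1 effector cytokine, IL-10 restrains inflammation, and the assay named IL-4 carries the identifier of the IL-4 receptor gene, so it is called the IL-4 assay here. IFNγ ranged from 0.582 to 1.44 in healthy pigs (median 0.984) and from 0.491 to 2.60 in PGR pigs (median 0.795). PGR pigs 3 and 4, at 2.60 and 2.48, exceeded every healthy pig, while the other 4 lay at or under the healthy median. The mean was 1.28 ± 0.990 (n = 6) against 1 ± 0.366 (n = 6; exact permutation p = 0.498). IL-10 averaged 0.739 ± 0.123 (n = 5) against 1 ± 0.197 (n = 5; exact permutation p = 0.0476), and p lay between 0.0635 and 0.0952 without healthy pig 3, 4 or 6 or PGR pig 2, 4, 5 or 6. The IL-4 assay averaged 0.756 ± 0.137 (n = 5) against 1 ± 0.219 (n = 6; exact permutation p = 0.0736, but 0.0476 without healthy pig 3 and 0.0317 without healthy pig 5). The group median lay above the panel median by 0.23 on the kept levels and flipped to −0.02 on their Ct.

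TLR4 senses endotoxin and MyD88 passes its signal on. TLR4 kept values were 0.472, 0.529, 0.594, 0.653 and 0.846 in PGR pigs, with 4 below the kept healthy range and PGR pig 3 within it. The blank of healthy pig 5 computes to 0.437, below all of them. TLR4 averaged 0.619 ± 0.144 (n = 5) against 1 ± 0.213 (n = 5; exact permutation p = 0.0159). All ileal TLR4 Ct values in the files are identical to the jejunal ones, and which mucosa the TLR4 reaction was run on could not be told, so each TLR4 value here, those in correlations too, may be an ileal target reading set against a jejunal β-actin reading. The blank of PGR pig 1 computes to 1.72, and with all values filled the mean was 0.886 (exact permutation p = 0.675). MyD88 varied least among healthy pigs on the levels relative to β-actin, but not on the Ct of all pigs (SD 0.379, against 0.147 for P70S6K). MyD88 averaged 0.859 ± 0.0826 (n = 4) against 1 ± 0.112 (n = 5, exact permutation p = 0.0873). MyD88 lay above the panel median on all 6 scales, by 0.42 on the kept levels, and carried the median of the 2 genes (0.18). TLR4 lay below the panel median on the kept levels (−0.05), with the mean target Ct (−0.04) and with a single β-actin set (−0.07), and above it on the other 3 scales.

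The antioxidant genes held the lowest median of the 9 functions on the kept levels. Nrf2 is the transcription factor that induces HO-1 and NQO1. Nrf2 ranged from 0.374 to 1.48 in healthy pigs (median 1.01) and from 0.0312 to 0.907 in PGR pigs (median 0.156). PGR pigs 3, 4, 5 and 6 lay between 0.0312 and 0.165, below every healthy pig, whereas PGR pigs 1 and 2 lay at 0.907 and 0.704, within the healthy range. The mean was 0.337 ± 0.372 (n = 6) against 1 ± 0.413 (n = 6, exact permutation p = 0.0195), and p lay between 0.0108 and 0.0411 whichever pig was left out. The fold then ranged from 0.223 without PGR pig 1 to 0.398 without PGR pig 3. Compared on the log2 level, the fold was 0.196 (exact permutation p = 0.0216).

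HO-1 kept values were 0.230, 0.423, 0.444, 1.87 and 2.04 in healthy pigs and 0.0498, 0.221, 0.244, 0.277 and 0.372 in PGR pigs. The healthy pigs divided into 2 high ones, pigs 2 and 6, and 3 low ones that bordered on or overlapped the PGR pigs. The mean was 0.233 ± 0.117 (n = 5) against 1 ± 0.874 (n = 5; exact permutation p = 0.0317). Without PGR pig 2, 3, 4, 5 or 6 the p was 0.151, 0.198, 0.159, 0.167 or 0.159. The blank of PGR pig 1 computes to 1.26, and with all values filled the mean was 0.462 (exact permutation p = 0.206). NQO1 averaged 0.633 ± 0.198 (n = 6) against 1 ± 0.482 (n = 4; exact permutation p = 0.129, but 0.0476 without healthy pig 1 or 3). The antioxidant median lay under the panel median on all 6 scales, by −0.93 on the kept levels, −0.62 on the Ct of all pigs and −1.19 with the mean target Ct as reference. Nrf2 and HO-1 carried it, and NQO1 lay within 0.07 of the panel median on each scale.

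Akt and mTOR are kinases of the nutrient and growth factor pathway, 4EBP1 is the repressor that mTOR releases and P70S6K is the kinase it activates. The kept mTOR values were 0.623, 0.676, 0.743, 0.826 and 0.834 in PGR pigs, of which 3 lay below the lowest kept healthy value of 0.766, while the blank of healthy pig 3 computes to 0.656. The mean was 0.740 ± 0.0922 (n = 5) against 1 ± 0.213 (n = 5; exact permutation p = 0.0317), with 0.0556 without healthy pig 2, 0.0714 without PGR pig 3 or 6 and 0.0635 without PGR pig 4. 4EBP1 averaged 0.664 ± 0.0431 (n = 4) against 1 ± 0.326 (n = 5; exact permutation p = 0.0952, but 0.0286 without healthy pig 5), and its 4 PGR values lay between 0.627 and 0.723. P70S6K averaged 0.818 ± 0.157 (n = 6) against 1 ± 0.401 (n = 5; exact permutation p = 0.355).

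On the kept levels Akt alone of this pathway had a PGR mean above the healthy mean, at 1.16 ± 0.259 (n = 6) against 1 ± 0.157 (n = 5, exact permutation p = 0.260). Whether Akt differed from the other 3 genes was not tested. PGR pigs 4 and 5, at 1.43 and 1.49, exceeded the 5 kept healthy values but not the blank of healthy pig 6, which computes to 1.69. With blanks filled the Akt mean was 1.04. On the Ct with no reference gene, Akt and P70S6K stood at 1.51 and 1.20 of the healthy mean (exact permutation p = 0.0368 and 0.0152), and mTOR and 4EBP1 flipped to 1.15 and 1.05. The protein synthesis median lay above the panel median on all 6 scales, by 0.28 on the kept levels and 0.07 on the Ct of all pigs, although 4EBP1 flipped to below it with blanks filled (−0.02) and on the Ct of all pigs (−0.04).

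The next question was whether pigs of 1 group varied more than those of the other. The median over genes of the SD of log2 level was 0.472 in healthy pigs and 0.438 in PGR pigs, and the SD was larger in PGR pigs for 12 genes and in healthy pigs for 14. In healthy pigs it ran from 0.162 for MyD88 to 1.41 for HO-1. In PGR pigs it ran from 0.0920 for 4EBP1 to 1.89 for Nrf2, with GHRL at 1.31, HO-1 at 1.13, IFNγ at 1.10, SERT at 1.00 and GHR at 0.922. The ratio of the PGR to the healthy SD was 2.58 for Nrf2, 2.54 for IL-1β, 2.23 for GHR and 1.97 for IFNγ. At the other end it was 0.192 for 4EBP1, 0.479 for P70S6K and 0.607 for mTOR, but none of the 3 passed the test below, with exact permutation p of 0.119, 0.158 and 0.381. The small SD of 4EBP1 came from 4 kept PGR values; with blanks filled it was 0.566 in healthy and 0.459 in PGR pigs, and on the Ct of all pigs it was larger in PGR pigs (0.322 against 0.411). Genes that varied more in healthy pigs also varied more in PGR pigs (rho = 0.593 over 26 genes), and the SD showed little relation to mean Ct (rho = −0.0414 in healthy pigs and 0.271 in PGR pigs).

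An exact permutation test of the absolute deviations from the group median, on the log2 level, gave an unadjusted p under 0.05 for 0 of 26 genes (0%). The smallest were 0.0714 for NQO1, 0.0952 for IL-1β and 0.108 for Nrf2, and the smallest adjusted p was 0.774. Leaving out 1 pig brought single genes under 0.05. These were P70S6K (exact permutation p = 0.0238 without healthy pig 1), IGF-1R (0.0286 without healthy pig 4), 4EBP1 (0.0286 without healthy pig 4, 5 or 6), IL-1β (0.00794 without PGR pig 1, 4 or 6), Nrf2 (0.0433 without PGR pig 4) and NQO1 (0.0238 without PGR pig 6). On the Ct of all pigs the median SD was 0.364 in healthy pigs and 0.520 in PGR pigs, and 2 genes had an unadjusted p under 0.05. IFNγ had an SD of 0.332 against 1.40 (exact permutation p = 0.0130) and Nrf2 one of 0.494 against 1.69 (exact permutation p = 0.0476), larger in PGR pigs in both.

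The last question within the jejunum was which genes varied together across pigs. Pearson r and Spearman rho were computed on log2 levels over the pigs with both values, for all 325 pairs of genes. Each r of a named pair on the kept levels is also given without the 2 pigs farthest from the centre of the pair, written as without 2. Pairs that hold GHR or IGF-1 have it within groups, with blanks filled. Most other r with blanks filled or on the Ct alone are given without that check. All points share the β-actin reading and the RNA input of a pig. The median r was 0.574 and 299 pairs were positive. A permutation test gave an unadjusted p under 0.05 for 125 pairs and a p adjusted over the 325 pairs under 0.05 for 69 of 325 (21.2%), all positive, while rho gave 20. Without the pairs that hold GHR or IGF-1, whose kept values did not overlap between groups, 45 of 276 passed. The 27 pairs of genes of the same function had a median r of 0.712, and of 0.463 on the target Ct of all pigs.

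Much of this co-variation was not present in the Ct alone. On the target Ct of all pigs the median r was 0.120, with 196 positive and 129 negative pairs, and 1 pair had an adjusted p under 0.05, shared with 0 of the 69. With blanks filled the median was 0.472 and 43 pairs passed, 34 of them among the 69, and after the group means were also subtracted 30 passed, with a median of 0.420. Subtracting the group means from the kept levels left 0 pairs, with a median of 0.369. The count was 10 without healthy pig 2, 14 without healthy pig 6 and 35 without PGR pig 3. With blanks filled the median r was 0.704 within healthy pigs and 0.273 within PGR pigs, and on the Ct alone it was 0.119 and 0.205. The genes whose level followed the β-actin Ct most closely were P70S6K (r = 0.909), HO-1 (0.888), INSR (0.884) and mTOR (0.883), and the part of β-actin in these pairs was not tested.

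**Figure D4:**
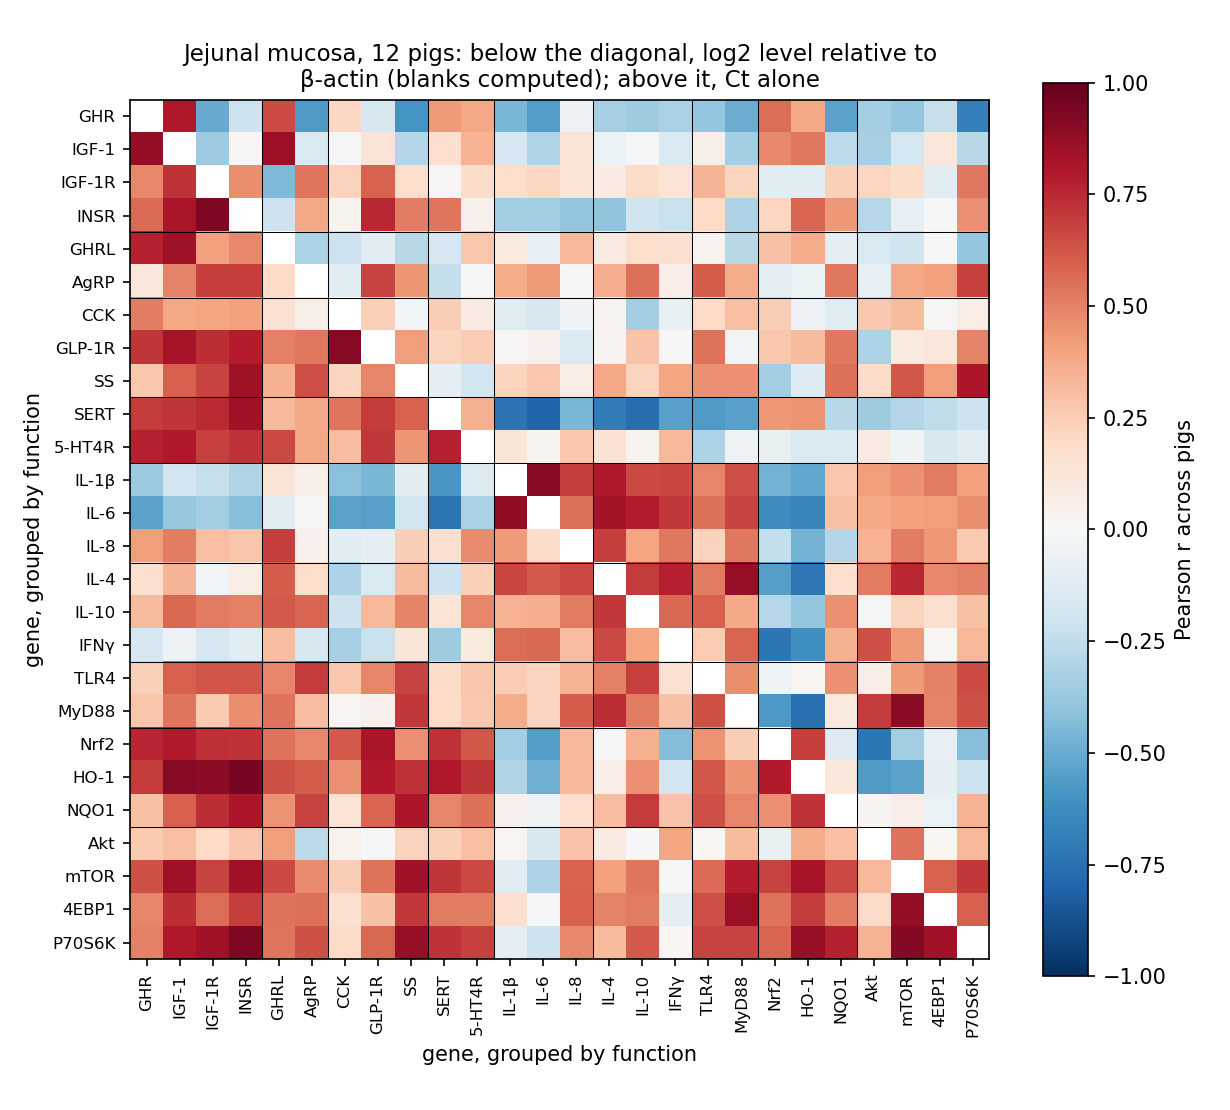
Pearson r between genes across the 12 pigs, with log2 levels including filled values below the diagonal and the target Ct alone above it. The median r was 0.472 on the filled levels and 0.120 on the target Ct.

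Pairs of the growth axis and gut peptides did not all follow these general features. The kept values of GHR and of IGF-1 did not overlap between groups, so these genes were correlated within groups, with blanks filled. In PGR pigs GHR and IGF-1 had r = 0.825 (n = 6, exact permutation p = 0.0444; rho = 0.899, exact permutation p = 0.0278), which was 0.535 without the 2 farthest pigs. In healthy pigs r was 0.795 (n = 6, exact permutation p = 0.0681; rho = 0.83, exact permutation p = 0.0583), and 0.402 without 2. On the Ct alone the 2 genes had r = 0.681 in PGR pigs (exact permutation p = 0.149) and 0.0799 in healthy pigs (exact permutation p = 0.842). IGF-1 and IGF-1R had r = 0.890 in healthy pigs (exact permutation p = 0.0181; rho = 0.83, exact permutation p = 0.0583; 0.705 without 2) and 0.631 in PGR pigs (exact permutation p = 0.186; rho = 0.319, exact permutation p = 0.55), where the relation did not hold without 2 pigs (−0.753). On the Ct alone IGF-1 and IGF-1R had r = −0.228 in healthy pigs (exact permutation p = 0.618) and 0.0128 in PGR pigs (exact permutation p = 0.983).

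IGF-1R and INSR had r = 0.869 over 8 pigs (exact permutation p = 0.00873; rho = 0.667, exact permutation p = 0.0831), and 0.308 without healthy pig 6 and PGR pig 3. With blanks filled IGF-1R and INSR had r = 0.934 over 12 pigs (adjusted p = 0.00162), with 0.931 within healthy and 0.925 within PGR pigs, and on the Ct alone 0.463 (permutation p = 0.129). CCK and GLP-1R had r = 0.908 over 10 pigs (permutation p = 0.00029; rho = 0.915, permutation p = 0.00049; 0.785 without 2), yet 0.239 on the Ct alone (permutation p = 0.438). CCK and SS had r = 0.560 (permutation p = 0.0936; rho = 0.612, permutation p = 0.0669; 0.474 without 2), but 0.225 with blanks filled (permutation p = 0.474) and −0.0240 on the Ct alone (permutation p = 0.954). GHRL and AgRP, both orexigenic, had r = −0.235 over 9 pigs (exact permutation p = 0.541, rho = −0.283, exact permutation p = 0.463, and r = −0.114 without 2), and with blanks filled the sign turned (0.203 over 12 pigs, permutation p = 0.523). With the mean target Ct as reference their r was −0.816 (exact permutation p = 0.00632, adjusted p = 0.264), and on the Ct alone −0.315 (permutation p = 0.332). SERT and 5-HT4R had r = 0.843 over 10 pigs (permutation p = 0.00063; rho = 0.818, permutation p = 0.0062) and 0.840 without 2, against 0.356 on the Ct alone.

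Among immune genes the 3 pro-inflammatory cytokines gave positive r over all pigs on both scales, but not in every case within healthy pigs. On the Ct alone within healthy pigs IL-1β and IL-6 had r = −0.769 (exact permutation p = 0.0694), IL-6 and IL-8 had −0.0649 (exact permutation p = 0.939) and IL-1β and IL-8 had 0.524 (exact permutation p = 0.288). Within PGR pigs the same pairs, in that order, had 0.971, 0.766 and 0.854 (exact permutation p = 0.0139, 0.0194 and 0.00972). Over all pigs the Ct gave 0.548 for IL-6 and IL-8 (permutation p = 0.0238) and 0.688 for IL-1β and IL-8 (permutation p = 0.00133). IL-6 and IL-8 had r = 0.799 over 9 pigs (exact permutation p = 0.00939; rho = 0.650, exact permutation p = 0.0666), which was 0.458 without PGR pig 2 and healthy pig 2 and 0.186 with blanks filled (permutation p = 0.502). IL-1β and IL-8 had r = 0.711 over 10 pigs (permutation p = 0.0231; rho = 0.648, permutation p = 0.0497) and 0.391 without PGR pigs 2 and 5, and 0.429 with blanks filled (permutation p = 0.178). IL-1β and IL-6 had r = 0.712 over 9 pigs (exact permutation p = 0.0304; rho = 0.667, exact permutation p = 0.0589; 0.719 without 2). On the Ct alone they had r = 0.913 (permutation p = 0.0334), with PGR pig 3 far from the other pigs in both genes. TLR4 and MyD88 had r = 0.803 over 8 pigs (exact permutation p = 0.0181; rho = 0.807, exact permutation p = 0.0216; 0.534 without 2) and 0.467 on the Ct alone (permutation p = 0.129). IL-10 and IFNγ had r = 0.231 over 10 pigs (permutation p = 0.519; rho = 0.297, permutation p = 0.408; −0.334 without 2). With blanks filled IL-10 and IFNγ had r = 0.392 (permutation p = 0.212) and on the Ct alone 0.574 (permutation p = 0.0479), with −0.0957 within healthy pigs on the Ct and 0.762 within PGR pigs.

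As a set chosen after the values were seen, the 8 cytokine and Toll-like receptor assays had a median r of 0.618 over their 28 pairs on the Ct alone, all 28 positive. Without PGR pig 3 it was 0.251, with 24 positive. The 11 hormone and receptor genes had a median r of 0.129 on the Ct and 0.729 on the kept levels, and the 7 antioxidant and protein synthesis genes had 0.0234 and 0.699.

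Nrf2 and HO-1 had r = 0.793 over 10 pigs (permutation p = 0.00273; rho = 0.842, permutation p = 0.0037; 0.609 without PGR pigs 3 and 5), and on the Ct alone r was 0.688 (permutation p = 0.0122, adjusted p = 0.188). Within groups the Ct gave r = 0.876 in PGR pigs (exact permutation p = 0.00417) and −0.136 in healthy pigs (exact permutation p = 0.769), where the relation did not hold. Nrf2 and NQO1 had r = 0.699 over 10 pigs (permutation p = 0.0255; rho = 0.794, permutation p = 0.00903; 0.822 without the same 2), but 0.454 with blanks filled (permutation p = 0.134) and −0.132 on the Ct alone (permutation p = 0.680). In the protein synthesis pathway mTOR varied with both of its targets. mTOR and 4EBP1 had r = 0.929 over 9 pigs (exact permutation p = 0.000179; rho = 0.917, exact permutation p = 0.00131; 0.887 without 2) and 0.593 on the Ct. mTOR and P70S6K had r = 0.908 over 9 pigs (exact permutation p = 0.000882; rho = 0.850, exact permutation p = 0.00607; 0.759 without 2) and 0.709 on the Ct. Akt and mTOR had r = 0.105 over 9 pigs (exact permutation p = 0.795; rho = 0.250, exact permutation p = 0.521; 0.430 without 2), but 0.539 on the Ct (permutation p = 0.0702) and 0.714 with the mean target Ct as reference (exact permutation p = 0.0304).

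Of the 5 pairs with the largest absolute r, mTOR and 4EBP1 are given above. IL-10 and TLR4 had r = 0.966 over 8 pigs (exact permutation p = 9.92e-05; rho = 0.976, exact permutation p = 0.000397; 0.932 without 2) and 0.594 on the Ct. With blanks filled IL-10 and TLR4 had r = 0.685 over 12 pigs, which no longer passed the adjustment (permutation p = 0.0114, adjusted p = 0.0593). The IL-4 assay and MyD88 had r = 0.920 over 8 pigs (exact permutation p = 0.00124; rho = 0.898, exact permutation p = 0.00486; 0.926 without 2) and 0.867 on the Ct (permutation p = 0.00043). IGF-1R and HO-1 had r = 0.943 over 8 pigs (exact permutation p = 0.000496; rho = 0.929, exact permutation p = 0.00223; 0.818 without 2) but −0.103 on the Ct. IGF-1 and HO-1, correlated within groups with blanks filled, had r = 0.951 in healthy pigs (n = 6, exact permutation p = 0.00278; rho = 0.943, exact permutation p = 0.0167; 0.931 without 2). In PGR pigs they had r = 0.937 (n = 6, exact permutation p = 0.0639; rho = 0.551, exact permutation p = 0.272), a relation that did not hold without the 2 farthest pigs (−0.884). On the Ct alone IGF-1 and HO-1 had r = 0.216 in healthy pigs (exact permutation p = 0.631) and 0.538 in PGR pigs (exact permutation p = 0.260). The 1 pair with an adjusted p under 0.05 on the Ct of all pigs was MyD88 and mTOR, chosen after its values were seen. It had r = 0.905 (permutation p = 2e-05, adjusted p = 0.0065; rho = 0.944, permutation p = 5e-05), 0.941 without healthy pig 2 and PGR pig 3, 0.916 within healthy pigs and 0.833 within PGR pigs.

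Across genes, Akt and IFNγ had the lowest median r with the other 25 genes on the kept levels, at 0.0226 and 0.0337, but not on the Ct alone, at 0.0699 and 0.255. These are descriptions over genes that are not independent.

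Whether the jejunal change differed from the ileal one was tested in 25 genes on the log2 level in the jejunum minus that in the ileum of the same pig; TLR4 was left out because its ileal Ct values are identical to the jejunal ones. An exact permutation test gave an unadjusted p under 0.05 for 2 of 25 genes (8%), SERT and Akt, and an adjusted p under 0.05 for 0. With blanks filled, and on the Ct alone, 0 genes had an unadjusted p under 0.05, so the other genes, and these 2 on those scales, were not shown to differ between the 2 parts of the intestine.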

How the data were processed

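Samples were grouped by title. The deposited values of the main table are a ratio of each target to β-actin in the same sample (2 to the power of minus ΔCt), computed by the authors, and 40 of its 312 jejunal values are blank and stayed missing. The deposited raw table gives the target Ct on a reversed log2 scale, from 17.85 to 32.11 cycles; 5 values are not the mean of 3 readings with 2 decimals. A further table by the authors, which holds the fold of every PGR pig over the mean of the healthy pigs, was not used. The β-actin Ct was recovered as target Ct plus log2 ratio; genes formed 3 sets of readings within 0.02 cycles, and blanks were filled from the Ct and the set.

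The study's independent-sample test was replaced by its exact permutation counterpart (924 splits for 6 against 6), adjusted by Benjamini-Hochberg over 52 comparisons. Correlations used all permutations below 10 pigs and 100000 resamples otherwise, adjusted over 325 pairs. All 26 genes are named, in 9 lists by function, with 17 fixed pairs and the 5 pairs with the largest absolute r; samples, genes and lists were chosen with earlier results of these data known. Alternatives were the log2 level, limma, a rank-sum permutation test, pigs of the same number as a block, the target Ct with no reference gene, the mean target Ct as reference, a single β-actin set, filled blanks, group-centred values, adjustment over 26 genes, each pig left out, and a filter on mean Ct above 32, which removed 0 genes. It is not stated whether pigs of the same number were litter mates, so the main test took no account of the matching by litter. Pigs of the same number had r from −0.329 to 0.259, over 0.1 in 1 of 6. This r cannot decide the point, since the size of a litter effect on these genes is not known. Of the assay identifiers, 25 of 26 matched the pig annotation. The tests were tested on simulated data. Linear models were fitted with limma 3.58.1 under R 4.3.3. The other steps ran in Python 3.11.15 with pandas 2.3.3 for tables, scipy 1.17.1 and numpy 2.4.6 for statistics, and matplotlib 3.10.9 for figures.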

Additional observations from a re-analysis of the deposited data

Results flagged for a closer look

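In 2 of 25 genes an exact permutation test on each pig's jejunal minus ileal log2 level gave an unadjusted p under 0.05 between PGR and healthy pigs; neither passed the adjustment, and neither had an unadjusted p under 0.05 with blanks filled or on the target Ct, so a difference between the tissues was not shown. For SERT this difference was 2.54 in healthy pigs (n = 5) and 3.98 in PGR pigs (n = 4), 1.44 apart (exact permutation p = 0.0238, adjusted p = 0.298 over 25 genes). With the blank values filled the SERT groups were 0.51 apart (exact permutation p = 0.563) and on the target Ct alone 0.28 apart (exact permutation p = 0.716). For Akt it was −0.53 in healthy pigs (n = 5) and −0.05 in PGR pigs (n = 6), 0.48 apart (exact permutation p = 0.0108, adjusted p = 0.271). With the blank values filled the Akt groups were 0.34 apart (exact permutation p = 0.130) and on the target Ct alone 0.29 apart (exact permutation p = 0.188). Among the kept jejunal levels, each gene and group was checked for a highest or lowest pig whose gap to the nearest pig, divided by the range of the group, exceeded Dixon's critical value at the 0.05 level, and 0 of 52 groups had one. With the blanks filled 5 of 52 had one, all 5 of them values that the deposited table leaves blank; by the level of the criterion, not by a test here, chance gives about 1 in 20 groups.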

How the results depend on the processing

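The number of genes with an unadjusted p under 0.05, 13 on the kept levels, was 13 on the log2 level and after the filter on mean Ct, 12 by limma, 11 by limma with the block, 9 by the rank-sum permutation test and 12 with a single β-actin set; adjustment over the 26 jejunal genes, an alternative count, gave 0, with a smallest adjusted p of 0.0563. With pigs of the same number as a block, an exact sign-flip test over 3 to 6 pairs, gave 1 gene, and 3 with blanks filled. Its smallest possible p is 0.0312 with 6 pairs and 0.0625 with 5, so on the kept values only the 3 genes with 6 pairs could pass and 23 could not, and the drop from 13 says little. With blanks filled 25 genes had 6 pairs. Nrf2, which could pass, had a sign-flip p of 0.0625 on the kept values and with blanks filled. 5-HT4R had a sign-flip p of 0.0625 with blanks filled. The count was 5 with blanks filled, 6 with no reference gene (3 lower, 3 higher), 7 with the mean target Ct (4 lower, 3 higher), 7 with no reference gene and blanks filled (4 lower, 3 higher), and 8 to 16 when 1 pig was left out. The median log2 change, −0.64, was −0.37 with blanks filled, −0.0142 with no reference gene, 0.0512 with the mean target Ct, 0.17 with no reference gene and blanks filled, and −0.70 to −0.48 when 1 pig was left out. Single genes reversed direction. With blanks filled, with or without the block, SS was 0.958, IL-1β 2.86 and IL-6 7.47 of the healthy mean. With no reference gene IGF-1R was 1.14, INSR 1.11, AgRP 1.12, GLP-1R 1.04, MyD88 1.41, NQO1 1.04, mTOR 1.15, 4EBP1 1.05 and P70S6K 1.20. With the mean target Ct IGF-1R was 1.16, INSR 1.21, AgRP 1.16, GLP-1R 1.08, the IL-4 assay 1.06, TLR4 1.01, MyD88 1.35, NQO1 1.07, mTOR 1.21, 4EBP1 1.14 and P70S6K 1.25. With no reference gene and blanks filled IGF-1R was 1.19, INSR 1.10, AgRP 1.26, GLP-1R 1.02, IL-1β 5.49, IL-6 14.3, IL-8 1.05, the IL-4 assay 1.24, IL-10 1.01, TLR4 1.27, MyD88 1.32, NQO1 1.16, mTOR 1.16, 4EBP1 1.10 and P70S6K 1.21. SS ranged from 0.989 to 1.24 when 1 pig was left out. Genes with unequal spread, 0 on the kept levels, were 2 with no reference gene, 2 with the mean target Ct, 2 with no reference gene and blanks filled, and 0 to 2 when 1 pig was left out. Gene pairs with an adjusted p under 0.05, 69 on the kept levels, were 62 with a single β-actin set, 43 with blanks filled, 30 with blanks filled and group-centred, 0 group-centred, 0 within healthy pigs (10 pairs with all 6 values), 0 within PGR pigs (55 such pairs, where a lone pair at 0.00139, the smallest p that 6 pigs can give, would not pass the adjustment), 0 with no reference gene, 3 with the mean target Ct, 1 with no reference gene and blanks filled, 3 when those were also group-centred, and 10 to 70 when 1 pig was left out. Genes whose jejunal and ileal changes differed, 2 on the kept levels, were 0 with blanks filled and 0 with no reference gene. The abundance span, 12.31 log2 units, was 11.98 to 12.55 when 1 healthy pig was left out. The cause was not tested for any of these differences. limma with the block, the block with blanks filled, and the combinations of no reference gene or group-centring with filled blanks were added after the values were seen.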
